A study of Homo sapiens with 6 samples.

Results

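BHLHE41 and 9 further genes of the circadian clock (BHLHE40, PER1, PER2, PER3, CRY1, CRY2, NR1D1, ARNTL and DBP) were followed in YAPC cells with and without induced GLI2. They were taken by symbol from the deposited gene table, 10 of the 25442 genes kept, and each symbol matched a row of its own. YAPC is a human pancreatic cancer cell line of the classical subtype. The iGLI2 cells carried an rtTA activator and pRetroX-Tight-Puro with Flag-tagged GLI2, the iEV cells the same activator and the empty pRetroX-Tight-Puro vector, and both groups were kept in doxycycline (Dox) in full growth medium for 6 days, with 3 RNA-seq libraries each. GLI2 in this design is an exogenous cDNA driven by a Dox-responsive promoter, and whether the lines were clones or pools, and whether the libraries came from separate cultures, is not given in the sources used here, so the errors below cover the spread between libraries only. BHLHE41 was chosen by its large FPKM increase in this same comparison, and the rest of the list was drawn up with these values known. The labels code replicates 1, 2 and 3 as YRE1A, YRE1B and YRE2A in iEV and as YRG1A, YRG1B and YRG2B in iGLI2 cells, so that replicates 1 and 2 share a digit apart from replicate 3, and what the codes mean is not given in the sources used here. The iGLI2 against iEV values of the 10 genes are therefore given as a description, without a test.

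The mammalian clock is a transcriptional feedback loop. BMAL1, encoded by ARNTL, pairs with CLOCK or NPAS2 and binds E-boxes in the PER, CRY, NR1D1 and DBP genes, and the PER and CRY proteins return to repress it. REV-ERBα (NR1D1) represses ARNTL through ROR elements, DBP acts on D-boxes, and BHLHE40 (DEC1) and BHLHE41 (DEC2) are basic helix-loop-helix repressors that bind the same E-boxes as BMAL1 and respond to hypoxia in many cell types. Each library is a snapshot of a culture, the hour of harvest is not given in the sources used here, and levels rather than rhythms were measured.

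The promoters of 5 of the genes that hold letter matches to E-box, D-box or ROR element sequences are shown. Those of PER3, CRY1 and NR1D1 also hold matches and are not shown. All 10 genes matched an entry of the RefSeq promoter table (GRCh38.p14), which spans 250 bases before to 50 after the start of transcription, and each window was found exactly once in GRCh37, whose coordinates are used here. The windows lie at chr12:26277921-26278220 (minus strand) for BHLHE41, chr3:5020872-5021171 (plus) for BHLHE40, chr11:13299087-13299386 (plus) for ARNTL, chr17:8055673-8055972 (minus) for PER1 and chr2:239197202-239197501 (minus) for PER2. They read 5′ to 3′ with the motif matches in capitals:
BHLHE41: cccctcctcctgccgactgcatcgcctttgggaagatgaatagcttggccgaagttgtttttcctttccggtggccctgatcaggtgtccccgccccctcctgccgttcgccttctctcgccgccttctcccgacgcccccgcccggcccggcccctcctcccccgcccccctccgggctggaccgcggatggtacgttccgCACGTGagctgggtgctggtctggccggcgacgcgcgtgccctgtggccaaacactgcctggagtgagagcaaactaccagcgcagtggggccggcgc
BHLHE40: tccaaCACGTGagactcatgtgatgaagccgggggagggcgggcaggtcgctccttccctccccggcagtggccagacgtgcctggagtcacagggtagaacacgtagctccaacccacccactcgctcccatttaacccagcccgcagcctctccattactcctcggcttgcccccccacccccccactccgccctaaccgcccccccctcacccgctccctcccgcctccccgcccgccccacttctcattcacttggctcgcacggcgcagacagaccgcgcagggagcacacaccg
ARNTL: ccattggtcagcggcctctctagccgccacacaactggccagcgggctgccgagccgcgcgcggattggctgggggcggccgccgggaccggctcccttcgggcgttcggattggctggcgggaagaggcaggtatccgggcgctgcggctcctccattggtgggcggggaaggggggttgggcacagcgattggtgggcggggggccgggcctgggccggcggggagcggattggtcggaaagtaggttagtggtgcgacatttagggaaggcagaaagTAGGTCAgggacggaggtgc
PER1: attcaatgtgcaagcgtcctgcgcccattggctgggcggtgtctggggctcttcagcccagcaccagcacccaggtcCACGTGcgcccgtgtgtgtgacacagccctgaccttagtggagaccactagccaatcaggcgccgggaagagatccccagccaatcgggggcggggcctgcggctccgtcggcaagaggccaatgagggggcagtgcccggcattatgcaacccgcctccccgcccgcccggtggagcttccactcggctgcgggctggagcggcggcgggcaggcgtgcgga
PER2: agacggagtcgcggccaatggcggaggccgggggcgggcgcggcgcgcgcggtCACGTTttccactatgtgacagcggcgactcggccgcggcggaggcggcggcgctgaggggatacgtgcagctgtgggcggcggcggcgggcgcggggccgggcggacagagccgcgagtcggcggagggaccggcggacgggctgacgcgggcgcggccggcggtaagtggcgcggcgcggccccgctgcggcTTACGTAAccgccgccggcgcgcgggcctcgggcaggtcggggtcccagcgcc

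The canonical E-box CACGTG was present in the windows of BHLHE41, BHLHE40 and PER1, 3 of 10, against 7.26% of all 35116 promoters of the table. Counting the start as base 1 and the base before it as -1, it began at -48 in BHLHE41, -245 in BHLHE40 and -173 in PER1. The variant CACGTT was found in PER2, CRY1 and NR1D1 (5.34% of all promoters). A D-box, searched as TTATGTAA or TTACGTAA, lay in PER2 and PER3 (1.01% of all promoters). A ROR element, searched as TAGGTCA or TGGGTCA, lay in ARNTL alone among the 10 (5.69% of all promoters), beginning at base 31 of the transcript. Neither the cAMP response element TGACGTCA (1.85%) nor the GLI sequence GACCACCCA (0.236%) matched any of the 10 windows. Both strands were searched and no matches overlapped. The map of motif positions shows these matches, and a match describes letters and not binding.

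**Figure D1:**
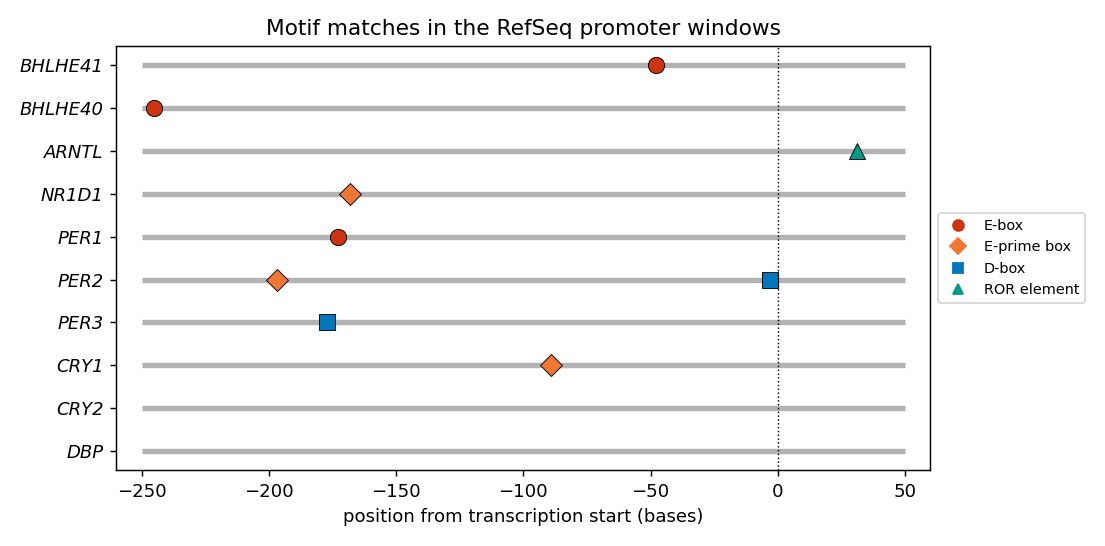
Each grey line is the window of a gene from 250 bases before to 50 bases after the start of transcription (dotted line), and each symbol is the first base of a motif match on either strand. BHLHE41, BHLHE40 and PER1 hold an E-box, and CRY2 and DBP hold none of the motifs drawn.

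Values are FPKM, fragments scaled to transcript length and library size, so that levels of different genes can be set side by side, and the values of a group are listed in the order of replicates 1, 2 and 3. Total FPKM was between 803145 and 1082680 per library, and MIR4461 alone made up between 35.7% and 45.4% of it. The number of reads behind a value is unknown, so no counting error is given. GLI2 was 0.466, 0.412 and 0.344 FPKM in the iEV libraries against 94.5, 207 and 195 FPKM with GLI2 induced, as the labels give it. The epithelial markers KRT7, KRT19, EPCAM, CDH1 and MUC1 were present, KRT8 and KRT18 were listed at 0 in every library, and the 7 markers summed to between 1731 and 2064 FPKM. The sum was mostly KRT7 and KRT19, whose groups overlapped, and it hides differences between the groups. MUC1 averaged 21.7 FPKM in iEV against 3.61 FPKM in iGLI2 cells. EPCAM (405 and 523 FPKM) and CDH1 (53.2 and 68.9 FPKM) were higher in iGLI2 cells. The 5 fibroblast markers summed to 1.35 to 1.57 FPKM without and 2.30 to 3.01 FPKM with GLI2 induced, most of it COL1A1 (DCN was listed at 0 throughout), 4 immune markers to at most 3.49 FPKM, most of it CD68, and 3 endothelial markers to at most 0.411 FPKM. Replicate 1 was the highest library of both groups for 25.5% of the 12493 genes averaging 1 FPKM or more. How far each library stood from the others of its group over all genes was not measured.

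Of the 10 genes, BHLHE41 was by far the most altered and was the only one whose group means differed by 2-fold or more. Both BHLHE genes and ARNTL had higher means in iGLI2 cells, while the means of the other 7 were lower. In 6 of the 10 the groups did not overlap, 2 higher (BHLHE41 and ARNTL) and 4 lower (PER1, PER2, CRY2 and NR1D1). Non-overlapping groups were also found in 42% of the 12493 genes averaging 1 FPKM or more (19.2% higher and 22.8% lower), and 9 of the 10 are among those genes. The tenth, PER1, had a mean of 0.99997 FPKM and fell just short. As the list was drawn up from this comparison, nothing is read from these counts.

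**Figure D2:**
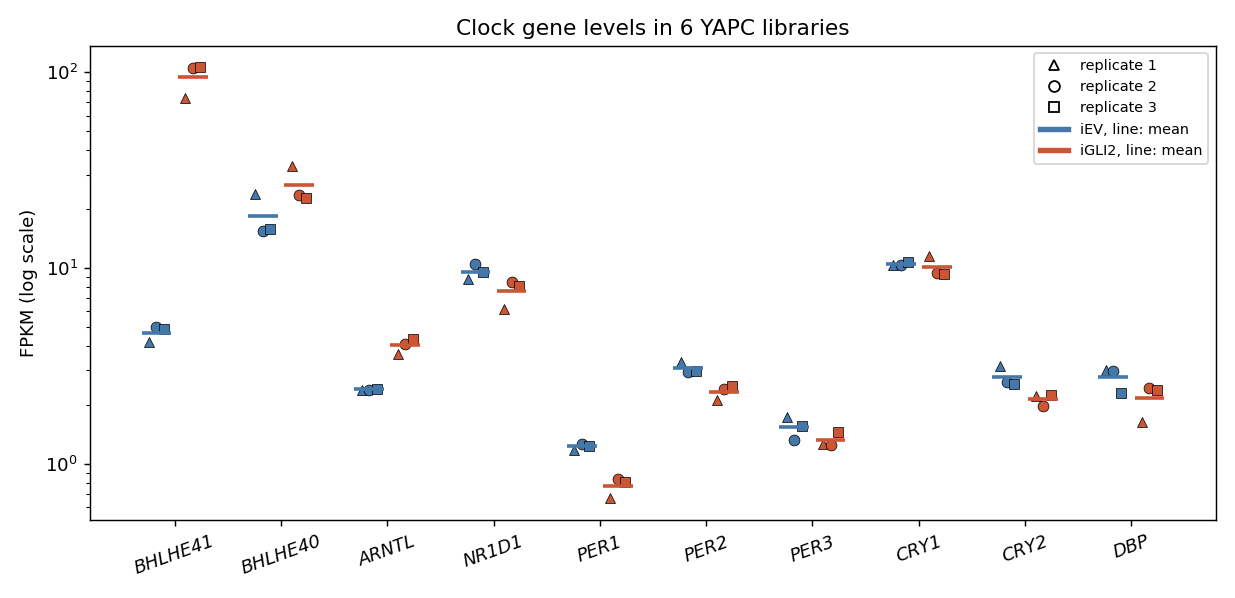
FPKM on a log axis for the 10 clock genes in each library, with iEV in blue and iGLI2 in orange, a symbol for each replicate number and a line at the group mean. BHLHE41 goes from between 4.18 and 4.999 FPKM in iEV to between 73.9 and 106 FPKM in iGLI2 cells, and the other 9 genes differ by far less.

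BHLHE41 (ENSG00000123095.6_8) lies on the minus strand of chromosome 12, from 26272959 to 26278003 in the deposited hg19 loci, and the positions of the other genes below are GENCODE models on GRCh37. It measured 4.18, 4.999 and 4.87 FPKM in the iEV libraries against 73.9, 105 and 106 FPKM with GLI2 induced. The iGLI2 libraries were all far above the iEV libraries, and replicate 1 was the lowest of its group in both. The means were 4.68 ± 0.439 and 94.8 ± 18.1 FPKM (± SD, n = 3 a group), a ratio of 20.2. The difference in log2(FPKM + 1) was 4.06 with a standard error of 0.15, rank 15 among the increases of the 12493 genes. In bulk RNA a change in the share of cells with a transcript and a change in its amount per cell cannot be told apart. In level, BHLHE41 was above 27.0% of these genes in iEV cells and above 92.5% of them in iGLI2 cells. iGLI2 replicate 1, with 0.470 of the mean GLI2 level of replicates 2 and 3, had 0.703 of their mean BHLHE41 level. In iEV, where GLI2 was under 1 FPKM, replicate 1 had 1.23 of the GLI2 and 0.848 of the BHLHE41 level of the other pair. A relation between GLI2 level and BHLHE41 level was not tested.

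BHLHE40, its closest relative (chromosome 3, 5021122 to 5027008), measured 24.0, 15.5 and 15.8 FPKM in the iEV libraries against 33.2, 23.7 and 22.7 FPKM with GLI2 induced. The groups overlapped, because iEV replicate 1 was above iGLI2 replicates 2 and 3. Means were 18.4 ± 4.80 and 26.6 ± 5.77 FPKM (± SD, n = 3 a group), a ratio of 1.44, and the difference in log2(FPKM + 1) was 0.51 with a standard error of 0.21. Without both libraries numbered 1 it was 0.54. BHLHE40 in iGLI2 replicate 1 was 1.39 times that in iEV replicate 1, and for the means of replicates 2 and 3 the ratio was 1.48. With the replicate number as a block the standard error was 0.050. Whether the numbers pair the libraries is not given in the sources used here. The order of the paralogs was reversed between the groups. The ratio of BHLHE41 to BHLHE40 was 0.175, 0.322 and 0.308 in the iEV libraries and 2.23, 4.42 and 4.64 with GLI2 induced. Their summed level was 23.1 ± 4.36 FPKM in iEV against 121 ± 12.3 FPKM in iGLI2 cells (± SD, n = 3 a group). BHLHE40-AS1, an antisense gene at the BHLHE40 locus, stayed at or below 0.216 FPKM in all 6 libraries.

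BHLHE40 was the only one of the 9 genes that was highest in replicate 1 of both groups, a pattern held by 25.5% of the 12493 genes. It was 1.53 times the mean of replicates 2 and 3 in iEV and 1.43 times that mean in iGLI2 cells, whereas BHLHE41 was 0.848 and 0.703 times it. Of 12 hypoxia-responsive genes, 8 averaged 1 FPKM or more and 7 of them were highest in replicate 1 of both groups. The remaining gene, VEGFA, went the other way and was lowest in replicate 1 of both groups. It measured 180, 216 and 218 FPKM in the iEV libraries against 230, 261 and 241 FPKM with GLI2 induced. Among the genes under the minimum, ANKRD37 held the pattern and CA9, LOX and ANGPTL4 did not. The 3 genes that follow were picked from those that held it. NDRG1, a hypoxia-induced stress gene, measured 58.2, 5.27 and 5.14 FPKM in the iEV libraries against 130, 22.1 and 20.3 FPKM with GLI2 induced. EGLN3, which encodes an oxygen-sensing prolyl hydroxylase, measured 17.3, 7.10 and 6.64 FPKM in the iEV libraries against 28.3, 5.67 and 4.96 FPKM with GLI2 induced. PDK1, a kinase that restrains pyruvate dehydrogenase, was 1.75 and 2.52 times the mean of the other pair in the libraries numbered 1 of iEV and iGLI2. Between iGLI2 and iEV cells, 0 of the 8 passed an adjusted p of 0.05 in limma, 2 had an unadjusted p under 0.05, and 6 passed the adjusted threshold without both libraries numbered 1, a setting under which 43.8% of all 12493 genes passed, against 21.9% with all libraries. The pattern over libraries was noticed after the values were seen, and the part of oxygen supply in it was not tested.

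**Figure D3:**
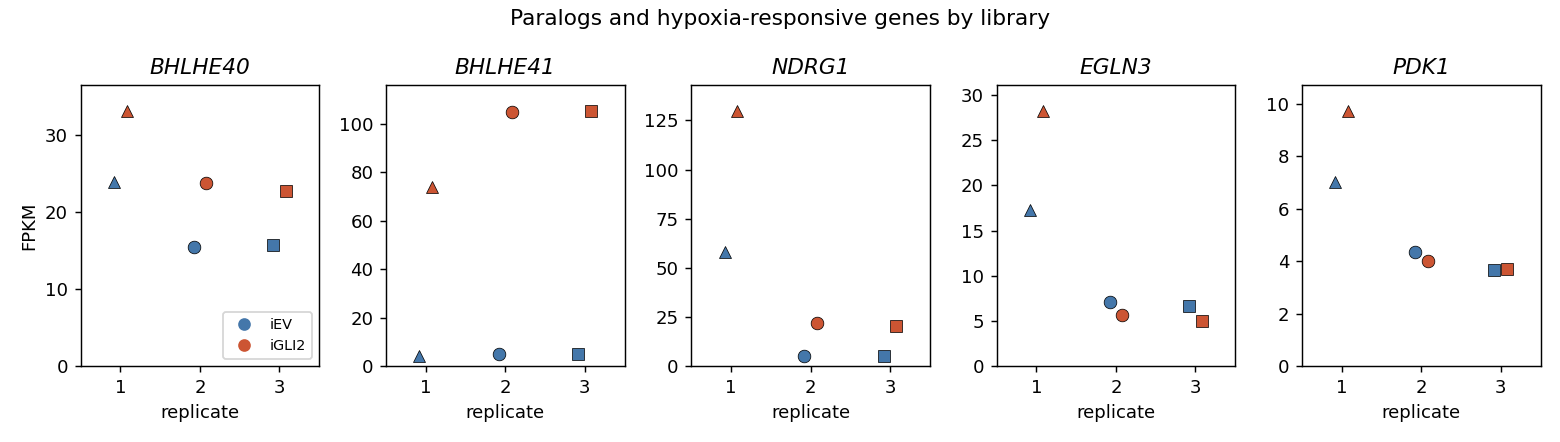
FPKM on linear axes from 0 for BHLHE40, BHLHE41 and the hypoxia-responsive genes NDRG1, EGLN3 and PDK1, by replicate number and group. The libraries numbered 1 are the highest of their group for BHLHE40 and all 3 hypoxia-responsive genes and the lowest for BHLHE41. The 3 were picked from the genes with this pattern, and VEGFA, lowest in the libraries numbered 1, is not drawn.

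ARNTL, which encodes BMAL1, lies on chromosome 11 (GENCODE model on GRCh37, 13298199 to 13408813). It measured 2.40, 2.38 and 2.43 FPKM in the iEV libraries against 3.66, 4.11 and 4.35 FPKM with GLI2 induced. The groups were well separated and the iEV libraries were nearly alike. The means were 2.40 ± 0.0227 and 4.04 ± 0.351 FPKM (± SD, n = 3 a group), a ratio of 1.68, with a difference in log2(FPKM + 1) of 0.56 and a standard error of 0.077. The gene for its repressor REV-ERBα, NR1D1 (chromosome 17, 38249046 to 38256842), differed the other way, with 8.75, 10.5 and 9.52 FPKM in the iEV libraries against 6.20, 8.49 and 8.08 FPKM with GLI2 induced. The highest iGLI2 library lay just under the lowest iEV library. The ratio of means was 0.792 and the difference in log2(FPKM + 1) was -0.31 (standard error 0.13). ARNTL over NR1D1 was 0.252 ± 0.0235 in iEV and 0.537 ± 0.0527 in iGLI2 cells (± SD, n = 3 a group). The exons of NR1D1 overlap those of THRA on the other strand, and without a stated strand setting their reads cannot be told apart there. THRA, the thyroid hormone receptor gene, averaged 3.91 ± 0.263 and 4.06 ± 0.367 FPKM (± SD, n = 3 a group; limma adjusted p = 0.751).

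The 3 PER genes encode the repressors that accumulate with the CRY proteins, and all had lower means in iGLI2 cells. PER1 (chromosome 17, 8043790 to 8059824) measured 1.18, 1.27 and 1.24 FPKM in the iEV libraries against 0.667, 0.834 and 0.813 FPKM with GLI2 induced. The groups did not overlap, and the ratio of means, 0.628, was the lowest of the 10 genes. Its difference in log2(FPKM + 1), taken from a fit without the minimum of 1 FPKM, was -0.33 (standard error 0.059). PER2 (chromosome 2, 239152685 to 239198743) measured 3.32, 2.96 and 2.97 FPKM in the iEV libraries against 2.12, 2.42 and 2.49 FPKM with GLI2 induced. Again the groups did not overlap, with a ratio of 0.760 and a log2 difference of -0.29 (standard error 0.082), which was -0.20 without both libraries numbered 1. ARNTL over PER2 was 0.781 ± 0.0528 in iEV and 1.72 ± 0.0246 in iGLI2 cells (± SD, n = 3 a group). PER3 (chromosome 1, 7844351 to 7905237) measured 1.74, 1.32 and 1.56 FPKM in the iEV libraries against 1.26, 1.25 and 1.46 FPKM with GLI2 induced, with overlapping groups and a log2 difference of -0.13 (standard error 0.10), or -0.05 without both libraries numbered 1. The summed level of the 3 PER genes was 5.85 ± 0.349 FPKM in iEV against 4.44 ± 0.365 FPKM in iGLI2 cells (± SD, n = 3 a group).

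The CRY genes encode flavoprotein repressors that bind BMAL1 complexes together with PER. CRY2 (chromosome 11, 45868669 to 45904799) measured 3.16, 2.63 and 2.55 FPKM in the iEV libraries against 2.21, 1.98 and 2.24 FPKM with GLI2 induced. Its groups did not overlap, the ratio of means was 0.771 and the log2 difference was -0.26 (standard error 0.092). CRY1 (chromosome 12, 107385142 to 107487327) was the more abundant of the pair, with 10.4, 10.4 and 10.8 FPKM in the iEV libraries against 11.5, 9.45 and 9.37 FPKM with GLI2 induced. Here iGLI2 replicate 1 lay above and replicates 2 and 3 below every iEV library. The log2 difference was -0.06 (standard error 0.087), it was -0.15 without both libraries numbered 1, and its sign changed to 0.02 once the small RNA genes were left out and the libraries rescaled. DBP, the D-box activator that is a direct output of BMAL1 (chromosome 19, 49133287 to 49140636), measured 3.03, 2.98 and 2.31 FPKM in the iEV libraries against 1.64, 2.44 and 2.40 FPKM with GLI2 induced. The groups overlapped, the log2 difference was -0.26 (standard error 0.14), and without both libraries numbered 1 it was -0.09.

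In order of level, iEV cells had BHLHE40 first at 18.4 FPKM, then CRY1 (10.5), NR1D1 (9.59), BHLHE41 (4.68), PER2 (3.08), CRY2 (2.78), DBP (2.77), ARNTL (2.40), PER3 (1.54) and PER1 (1.23). The libraries of CRY1 and NR1D1 overlapped, as did those of PER2 with CRY2, CRY2 with DBP and DBP with ARNTL, while the other neighbours in the order did not overlap. In iGLI2 cells the order was BHLHE41 at 94.8 FPKM, BHLHE40 (26.6), CRY1 (10.1), NR1D1 (7.59), ARNTL (4.04), PER2 (2.34), DBP (2.16), CRY2 (2.15), PER3 (1.32) and PER1 (0.771). There the overlaps were those of PER2 with DBP and of DBP with CRY2. ARNTL thus stood under PER2, CRY2 and DBP in mean level in iEV cells and above all 3 in iGLI2 cells.

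To see how the rest of the clock compared, 60 other clock genes were examined, of which 53 averaged 1 FPKM or more. In limma with Benjamini-Hochberg adjustment, 4 rose and 7 fell in iGLI2 cells, 7.55% and 13.2% of the 53, against 10.1% and 11.8% of all genes tested. The balance of directions turned over under 3 alternatives, with 9 higher and 6 lower once small RNA genes were dropped and libraries rescaled, 10 higher and 8 lower without iGLI2 replicate 1, and 18 higher and 10 lower without both libraries numbered 1. Their median difference in log2(FPKM + 1) was 0.04, beside -0.01 for all genes tested. The count rests on which libraries enter, and ranged from 5 to 18 with a library left out in turn (18 without iGLI2 replicate 1, 5 without iEV replicate 3, without iGLI2 replicate 2 or without iGLI2 replicate 3, and 6 without iEV replicate 2). The calls of NPAS2, TSC22D3, PPARGC1A, SIK1 and WEE1 held under all 14 alternatives, and the other 6 genes lost theirs under 4 to 6 of them. TSC22D3, PPARGC1A, KLF10, CIPC and CUL4A were highest in replicate 1 of both groups, like BHLHE40, and without both libraries numbered 1 their log2 differences were -1.24, -1.12, 0.29, 0.35 and -0.35.

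Among the partners of BMAL1, NPAS2 fell and CLOCK did not pass the test. NPAS2 measured 53.3, 44.8 and 41.0 FPKM in the iEV libraries against 25.3, 26.9 and 26.5 FPKM with GLI2 induced. Every iGLI2 library was well under the iEV libraries, and the log2 difference was -0.79 with a standard error of 0.10 (limma adjusted p = 0.00448). CLOCK had 5.99 ± 0.0835 FPKM in iEV against 5.97 ± 0.604 FPKM in iGLI2 cells (± SD, n = 3 a group; limma adjusted p = 0.96). NPAS2 over CLOCK was 7.74 ± 1.04 in iEV and 4.43 ± 0.547 in iGLI2 cells (± SD, n = 3 a group). ARNTL2, the paralog of ARNTL, averaged 9.53 and 7.29 FPKM and did not pass (limma adjusted p = 0.0911).

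Of 8 input and output genes tested 2 rose and 3 fell, and of 16 cofactor and chromatin genes 1 rose and 1 fell. These are 62.5% and 12.5% of the lists, beside 21.9% of all genes tested. Of the 8, 6 were highest in replicate 1 of both groups, a pattern held by 25.5% of all genes tested. The lists are small and nothing is read from these shares. TSC22D3, a glucocorticoid-responsive leucine zipper gene, averaged 26.2 ± 5.24 against 10.1 ± 1.36 FPKM (± SD, n = 3 a group), a log2 difference of -1.29 (limma adjusted p = 0.0034). PPARGC1A, the metabolic coactivator PGC-1α, averaged 7.70 ± 0.882 against 3.20 ± 0.729 FPKM (± SD, n = 3 a group; -1.06, limma adjusted p = 0.00476). CIART, a repressor of CLOCK and BMAL1, measured 4.08, 5.15 and 4.47 FPKM in the iEV libraries against 3.25, 3.09 and 2.98 FPKM with GLI2 induced (-0.44, limma adjusted p = 0.0206). WEE1, the clock-controlled mitotic kinase, had a log2 difference of -0.42 (limma adjusted p = 0.00779). SIK1, a kinase that acts in the light input pathway, rose from 9.68 ± 0.749 to 16.7 ± 1.03 FPKM (± SD, n = 3 a group; 0.73, limma adjusted p = 0.0024). KLF10, a zinc finger output gene, rose by 0.26 (limma adjusted p = 0.0326), and CIPC, an inhibitor of CLOCK, rose by 0.31 (limma adjusted p = 0.0365).

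Kinases and ubiquitin ligases set the stability of PER and CRY. Of 13 kinase and phosphatase genes, including CSNK1D and GSK3B, 0 passed in limma and 3 had an unadjusted p under 0.05. Of all genes tested 21.9% passed, and the list is too small to set it apart from them. Of 10 ubiquitin pathway genes tested 30% passed. SKP1 rose by 0.20 (limma adjusted p = 0.0425) and the cullin genes CUL1 and CUL4A fell, by 0.30 and 0.40 on the log2 scale (limma adjusted p = 0.019 and 0.0202). Among the other nuclear receptors of the loop NR1D2 averaged 12.1 and 12.3 FPKM (limma adjusted p = 0.844). RORA, an activator of ARNTL, was under the minimum, with 0.489, 0.308 and 0.359 FPKM in the iEV libraries against 1.35, 0.993 and 0.907 FPKM with GLI2 induced, groups that did not overlap. Of the D-box factors, TEF and NFIL3 did not pass and HLF was at most 0.0412 FPKM.

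**Figure D4:**
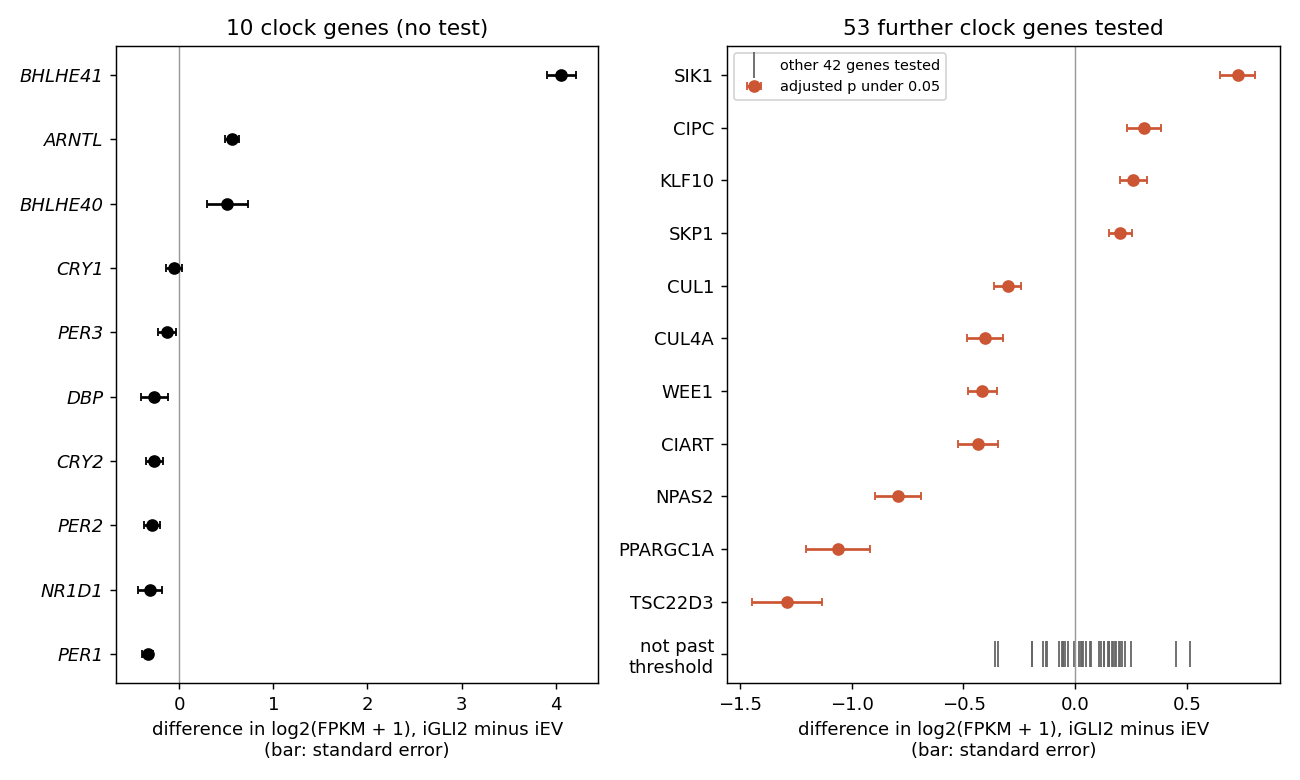
Differences in log2(FPKM + 1), iGLI2 minus iEV, with standard errors, for the 10 clock genes (left, no test) and for the 53 other clock genes tested (right), of which the 11 with a limma adjusted p under 0.05 are drawn by name and the other 42 as ticks in the lowest row. BHLHE41 lies at 4.06, and the 11 named genes lie between -1.29 and 0.73.

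SSPN, the sarcospan gene, lies next to BHLHE41 on the opposite strand, and exons of its GENCODE models overlap BHLHE41, although in the deposited table its locus begins 70266 bases away. It measured 3.07, 3.98 and 3.68 FPKM in the iEV libraries against 16.4, 18.7 and 19.0 FPKM with GLI2 induced. All iGLI2 libraries were above the iEV libraries, and SSPN rose by 2.06 in log2(FPKM + 1) with a standard error of 0.10 (limma adjusted p = 2.21e-04). BHLHE41 over SSPN was 1.31 ± 0.0536 in iEV and 5.23 ± 0.617 in iGLI2 cells (± SD, n = 3 a group). SPHK2 and UTS2, whose exons overlap DBP and PER3 on the opposite strand, did not pass (limma adjusted p = 0.518 and 0.381). Other overlapping genes had no deposited values. ENSG00000263620 overlaps exons of PER1 on the same strand, and how much of the PER1 level lies in the overlap was not tested. On the opposite strand, ENSG00000290083 overlaps ARNTL, ENSG00000257548 CRY1, ENSG00000225057 PER2 and ENSG00000236266 PER3.

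The genes whose profile over the 6 libraries lay nearest to that of BHLHE41, by Euclidean distance between log2(FPKM + 1) values relative to the iEV mean, were S100A2 (distance 0.602), PKDCC (1.02), COL13A1 (1.43), PLA1A (1.43) and MIR3934 (1.44). S100A2, a calcium-binding protein gene, had 175, 192 and 184 FPKM in the iGLI2 libraries and a ratio of means of 22.3, beside the 20.2 of BHLHE41. PLA1A, a phospholipase gene, had 24.4, 39.3 and 40.4 FPKM in the same libraries, and like BHLHE41 was lowest in replicate 1. MIR3934 was listed at 0 in all iEV libraries. Being taken from the iEV mean, the distance mostly follows the size of the increase, the value by which BHLHE41 was chosen. Nearness here therefore describes genes with increases of similar size and no more. With a pseudocount of 0.1 in place of 1, S100A2 and PKDCC were again among the nearest 5 genes, and the other 3 were TMEM200C, LGR6 and GLI1.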

How the data were processed

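RNA was sequenced from 3 YAPC-iEV and 3 YAPC-iGLI2 libraries. The authors used Trimmomatic for clipping, TopHat2 for alignment to hg19 and Cuffdiff (2.1.1 in the submitters' processing notes). The deposited table gives a value per gene and library without a unit, read here as FPKM from its form, and 0 value columns lacked a sample. The annotation and the scaling between libraries are not given in the sources used here. Of 27024 entries, 1252 outside the primary chromosomes and 330 repeated names (the lower mean) were left out. Depth is unknown, since ratios of low values between libraries gave no steps of whole reads, and an exact 0 can be a failed estimate. Locus starts, counted from 0 in the table, had 1 added.

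log2(FPKM + 1) of the 12493 genes averaging 1 FPKM or more was fitted with limma 3.58.1 (R 4.3.3), two-sided, with condition as the only term, a variance trend and Benjamini-Hochberg adjustment at 0.05. The added 1 understates changes of low genes. An exact permutation test of 3 against 3 cannot go below p = 0.1. The limma step was tested on simulated data. Member genes and gene lists were chosen with earlier results of these data known. Genes named are the 10 members, the GLI2 check, list genes past the threshold (up to 3 each way for hypoxia), genes that overlap a member's exons and the 5 profiles nearest to BHLHE41. Other genes were named after their values were seen. Alternatives were upper quartile and quantile scaling, leaving out small RNA genes with rescaling, a pseudocount of 0.1, no minimum, a minimum of 5 FPKM, the replicate number as a block, each library left out and, chosen after seeing the data, both libraries numbered 1 left out. Annotation was GENCODE 44 lifted to GRCh37. Python 3.11.15 and matplotlib 3.10.9 were used.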

Additional observations from a re-analysis of the deposited data

How the results depend on the processing

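The differences of the 10 clock genes moved by less than the spread between libraries under nearly all alternatives that covered them. PER1, under the minimum, was not covered by the scaling and small RNA alternatives or the replicate block. The minimum of 5 FPKM covered only BHLHE40, BHLHE41, CRY1 and NR1D1. The exceptions were a pseudocount of 0.1, which gave 4.29 for BHLHE41, -0.61 for PER1, -0.38 for PER2 and 0.72 for ARNTL, and leaving out both libraries numbered 1, which gave -0.20 for PER2. The pseudocount of 0.1 enlarges log2 differences of low genes by construction. When single libraries were left out, the difference stayed between 3.97 and 4.23 for BHLHE41, 0.35 and 0.71 for BHLHE40, 0.52 and 0.62 for ARNTL, -0.36 and -0.29 for PER1, -0.32 and -0.24 for PER2, -0.19 and -0.07 for PER3, -0.14 and -0.01 for CRY1, -0.31 and -0.19 for CRY2, -0.39 and -0.19 for NR1D1 and -0.35 and -0.14 for DBP. Genes called over the whole table numbered 2742, between 1223 and 3753 with a library left out and 5467 without both libraries numbered 1. The share of called genes that were higher was 46.0%, and 59.4% after the small RNA genes were left out and the libraries rescaled. Of the other clock genes, 11 were called, between 5 and 18 with a library left out and 28 without both libraries numbered 1. Those higher numbered 4, between 1 and 10 with a library left out, 9 once small RNA genes were dropped and libraries rescaled, and 18 without both libraries numbered 1. Those lower numbered 7, between 4 and 8 with a library left out, 6 with small RNA genes dropped and 10 without both libraries numbered 1. Of the hypoxia-responsive genes 0 were called, between 0 and 2 with a library left out, 1 under quantile normalization, 2 once small RNA genes were dropped and libraries rescaled, and 6 without both libraries numbered 1. The cause of these changes was not tested. Deviations from the group mean correlated at 0.204, 0.0919 and 0.0276 between libraries numbered 1, 2 and 3. Between libraries of unlike number the correlations lay between -0.193 and 0.117. Whether the numbers pair the libraries was not settled, and the main fit did not pair them. With the replicate block the fit called 3928 genes, 3 of them hypoxia-responsive. The block left the differences of the clock genes fitted as they were. Their standard errors fell most for BHLHE40 (0.050), BHLHE41 (0.084) and NR1D1 (0.063), and rose for PER2 (0.087) and DBP (0.145). Depth behind each FPKM value is unknown, which limits most what can be said of genes near 1 FPKM such as PER1 and PER3.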

Other observations

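Beyond SSPN, 3 further genes near BHLHE41 on chromosome 12 had higher means in iGLI2 cells (named after their values were seen). The shared deposited locus of RASSF8 and RASSF8-AS1 lies 40134 bases and that of ITPR2 210267 bases from BHLHE41. ITPR2, an inositol trisphosphate receptor gene, was under the minimum of 1 FPKM, with 0.262, 0.396 and 0.395 FPKM in the iEV libraries against 1.01, 0.906 and 0.838 FPKM with GLI2 induced. RASSF8, a RAS association domain gene, averaged 1.78 ± 0.381 FPKM in iEV against 2.58 ± 0.606 FPKM in iGLI2 cells (± SD, n = 3 a group) and did not pass the threshold (limma adjusted p = 0.166). RASSF8-AS1 averaged 0.846 ± 0.272 and 1.28 ± 0.0636 FPKM (± SD, n = 3 a group) and did not pass either (limma adjusted p = 0.153).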
